A study of Mus musculus with 7 samples.

Results

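Macrophages that take up lipid hand surplus cholesterol to lipoproteins outside the cell, and 9 genes of this route were followed here in tumour macrophages with and without Gpr65. The genes were Apoe, Apoc1, Apoc2, Abca1, Abcg1, Nr1h2, Nr1h3, Pltp and Lpcat3, chosen by name out of the 53379 genes of the count table. The macrophages were sorted as cells positive for CD45, CD11b and F4/80 from MC38 tumours, 21 days after implantation, with 1 library per mouse. The 3 knockout mice carried the genotype Gpr65-knockout and the 4 wild-type mice the genotype Gpr65-wild-type, and all were C57BL/6J mice fed a high-fat diet. Gpr65 encodes a receptor for extracellular protons. The labels do not say whether the knockout covered the whole animal or some cells only. MC38 is a mouse colon carcinoma line, and the mouse numbers of the labels name the libraries below.

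The liver X receptors are nuclear receptors that bind oxysterols, which are oxidised forms of cholesterol, and pair with retinoid X receptors on DNA. Nr1h3 encodes LXR alpha and Nr1h2 encodes LXR beta, and when bound by oxysterol they raise the transcription of cholesterol-exporting genes. Abca1 and Abcg1 are ATP-driven membrane transporters that move cholesterol to lipid-poor and to mature lipoprotein particles. Apoe is the apolipoprotein that macrophages secrete in quantity, Apoc1 and Apoc2 are small apolipoproteins encoded beside it, and Pltp transfers phospholipid between particles. Lpcat3 is an acyltransferase that puts polyunsaturated fatty acids into membrane phospholipids. Apart from the receptors, all of these are known LXR targets in macrophages or liver.

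On the GRCm38 build (GENCODE M21) Apoe spans 19696109 to 19699188, Apoc1 19689481 to 19692660 and Apoc2 19671579 to 19677941 of chromosome 7, on the minus strand, and Nr1h2 lies farther along the same chromosome at 44549616 to 44553951. Nr1h3 (91184061 to 91202834) and Pltp (164839518 to 164857711) lie on chromosome 2, Abca1 on chromosome 4 (53030787 to 53159895), Lpcat3 on chromosome 6 (124663027 to 124704418) and Abcg1 on chromosome 17 (31057675 to 31117988). Promoter windows of 300 bases, from 250 before to 50 after the start site, were matched in RefSeq (GRCm38.p6) for 7 of the 9 genes, and Abcg1 and Apoc1 were not matched. The 250 bases before the start sites of Apoe and Abca1 are shown because the ratio of these 2 genes separated the genotypes, as given below. The first is chr7:19699189-19699438 and the second chr4:53159896-53160145, both read on the minus strand, and capitals mark a match to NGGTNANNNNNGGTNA, a loose form of the direct repeat with a spacer of 4 bases that LXR pairs bind.
Apoe: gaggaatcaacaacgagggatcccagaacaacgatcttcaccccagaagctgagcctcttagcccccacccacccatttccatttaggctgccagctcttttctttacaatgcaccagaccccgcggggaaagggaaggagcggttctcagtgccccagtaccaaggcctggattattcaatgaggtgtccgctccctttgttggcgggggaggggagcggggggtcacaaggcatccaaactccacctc
Abca1: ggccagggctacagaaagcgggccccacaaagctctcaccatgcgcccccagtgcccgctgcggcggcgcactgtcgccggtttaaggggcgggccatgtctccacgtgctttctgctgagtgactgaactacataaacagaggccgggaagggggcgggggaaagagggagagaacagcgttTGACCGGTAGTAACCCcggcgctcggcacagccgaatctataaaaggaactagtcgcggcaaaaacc

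The match in Abca1 lay 67 to 52 bases before the start site, and on the opposite strand it reads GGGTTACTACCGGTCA. With both strands searched, 0.718% of 32851 mouse promoter windows held the loose repeat. Of the 10 windows of the 7 genes, Abca1 was the 1 with a match. The strict repeat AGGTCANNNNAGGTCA, which contains its unit AGGTCA at both ends, occurred in 5 of the 32851 windows and in none of these 10. The unit AGGTCA by itself occurred in 16.3% of all windows, and among the 7 genes in Apoc2, at 115 to 110 bases before and 43 to 48 bases after the start site. These matches describe the letters in the windows, and LXR binding was not measured.

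Library totals lay between 26253675 and 30483733 counts in knockout mice and between 22449772 and 28024612 in wild-type mice. Gpr65 measured 0.683, 0.976 and 1.10 CPM (read counts scaled to a common library size) in knockout mice 1 to 3 and 65.2 to 112 CPM in wild-type mice (log2 fold change -6.62, edgeR adjusted p = 8.00e-05). The 10 macrophage markers summed to 16782 to 33965 CPM in knockout and 17221 to 19733 CPM in wild-type libraries. Markers of other cells were present at lower sums. Monocyte markers summed to 368 to 740 CPM in knockout and 751 to 4209 CPM in wild-type mice, T cell markers to 12.4 to 397 CPM in knockout (397 in knockout 3) and 22.1 to 81.0 CPM in wild-type mice, and MC38 and epithelial markers to 42.1 to 168 CPM in knockout and 126 to 451 CPM in wild-type mice. Neutrophil markers summed to 88.0 to 184 CPM in knockout and 83.6 to 215 CPM in wild-type mice, and among these 10 markers only Ly6g had 0 counts in all libraries. Hepatocyte markers were at or near 0, with Alb, Ttr, Serpina1a and Fga at 0 counts in all libraries. Tested genes without a read numbered 940 in knockout 1 and 51 to 281 in each other library, so the main members are also given without knockout 1. In a sorted bulk sample, fewer cells of a type and less RNA per cell cannot be told apart.

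Of the 8 genes that could be tested, Apoe had the largest fold change between genotypes, at 41748 ± 29147 CPM (SD, n = 3) in knockout and 14412 ± 4283 CPM (SD, n = 4) in wild-type mice. It did not pass the test across all genes. Abcg1 came next, at 96.9 ± 44.6 CPM (SD, n = 3) in knockout and 54.1 ± 11.2 CPM (SD, n = 4) in wild-type mice. In Apoe and Abcg1 alike, the means differed by less than the knockout SD. The means of Abca1 were 238 and 230 CPM, and those of Nr1h2 148 and 143 CPM, in knockout and wild-type mice. Of these 8, edgeR called 0 at an adjusted p of 0.05, where 0.037% of the 16234 tested genes were called (0.0246% higher and 0.0123% lower in knockout mice). Before adjustment, p was under 0.05 for 2 of the 8, Apoe and Abcg1, both higher in knockout mice, as were 2.57% of all tested genes. DESeq2 called 1 of them, Apoe (adjusted p = 0.0464), where it called 0.223% of 19756 genes higher, and limma voom with library weights called 0. The groups overlapped in each of the 9 genes, while they did not in 6.12% of all tested genes (2.8% higher in knockout mice). Fold changes were above 0 for 7 of the 8, and their median was 0.46 on the log2 scale, against -0.0016 over all tested genes, 49.7% of which were positive. Without knockout 2 the median of the 8 was 0.12, with 6 above 0, and with scaling by library totals alone 5 were above 0.

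**Figure D1:**
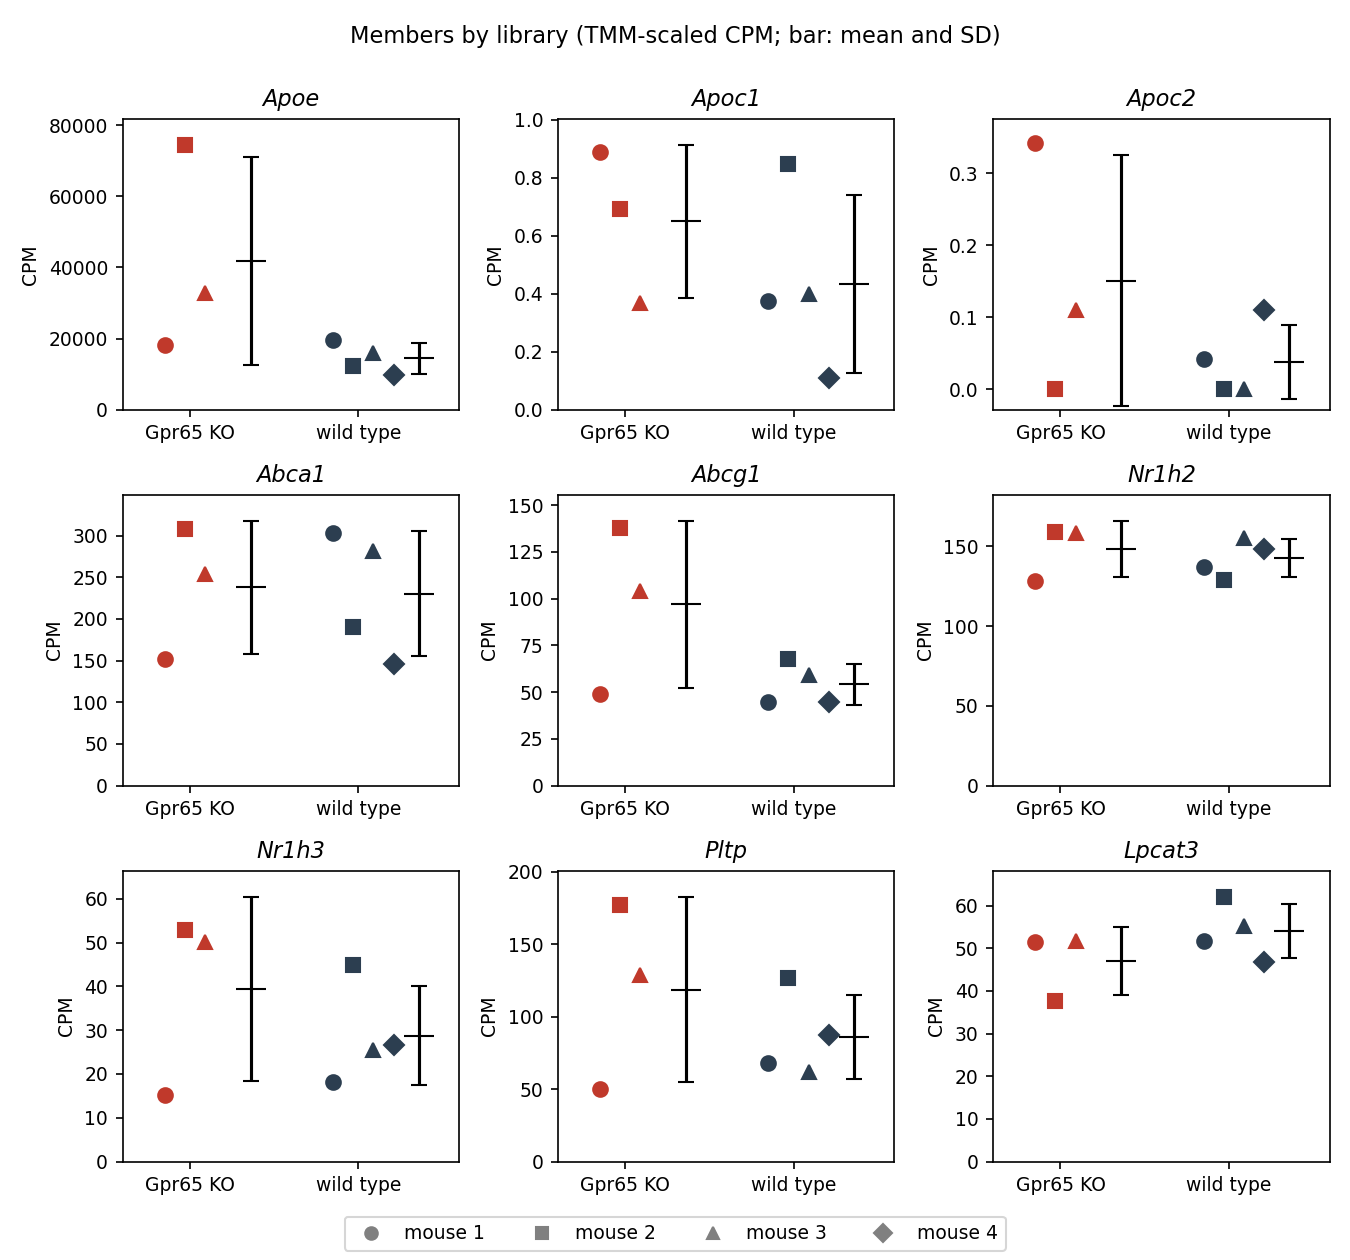
Level of each of the 9 genes in every library, in TMM-scaled CPM, with Gpr65 knockout mice left and wild-type mice right of each panel; point shapes give the mouse number and bars the mean and SD (n = 3 and n = 4). Knockout 2, at 74339 CPM, and knockout 3, at 32725 CPM, lie above the wild-type mice in Apoe, and knockout 1, at 18178 CPM, lies among them.

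Apoe measured 18178, 74339 and 32725 CPM in knockout mice 1, 2 and 3 and 19693, 12272, 15813 and 9872 CPM in wild-type mice 1 to 4. Knockout 2 and knockout 3 were above all wild-type mice, and knockout 1 was below wild-type 1 and above the others. The log2 fold change was 1.53 (SE 0.46, 95% interval 0.50 to 2.57, edgeR adjusted p = 0.764). Without knockout 2 it was 0.82 (SE 0.34, edgeR adjusted p = 1.00), and without knockout 1 it was 1.88 (SE 0.37, edgeR adjusted p = 0.117). Across the other alternatives tried, DESeq2 apart, the adjusted p lay between these bounds.

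Apoe was among the most abundant transcripts of these cells in both genotypes. It held 2.03%, 5.99% and 3.16% of all counts in knockout mice 1 to 3 and 2.11%, 1.15%, 1.70% and 1.04% in wild-type mice 1 to 4. By count it ranked 1, 1 and 2 among all genes in knockout mice, and 1, 3, 1 and 4 in wild-type mice. Its share averaged 3.73% ± 2.04 (SD, n = 3) in knockout and 1.50% ± 0.496 (SD, n = 4) in wild-type mice (two-sided exact permutation p = 0.0857, where 0.0286 is the smallest that 35 splits allow).

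Knockout 2, the library with the most Apoe, also had the highest summed macrophage markers, a sum in which the complement genes C1qa, C1qb and C1qc weigh most. Of the single markers, Adgre1, Csf1r, Cd68 and Ptprc were also highest in knockout 2, at 1332, 3264, 1293 and 923 CPM. The margin was narrow for Csf1r and Cd68 (3106 and 1282 CPM in wild-type 1) and for Ptprc (865 CPM in knockout 3). These levels depend on the TMM factor, which was lowest in knockout 2 (0.807, against 0.940 to 1.12 elsewhere) and so raises its CPM. Mrc1, the mannose receptor, had 104 CPM in knockout 2, the lowest of all libraries. Itgam, which encodes CD11b, had 203 CPM there, inside the wild-type range (293, 121, 241 and 143 CPM in wild-type mice 1 to 4). The C1q genes, which tumour macrophages express strongly, summed to 11828, 26239 and 16602 CPM in knockout mice 1 to 3 and to 11823, 14213, 11389 and 12605 CPM in wild-type mice. Relative to that sum, Apoe CPM stood at 1.54, 2.83 and 1.97 in knockout and at 1.67, 0.864, 1.39 and 0.783 in wild-type mice, where knockout 1 again lay below wild-type 1. Relative to all 10 summed macrophage markers, Apoe CPM stood at 1.08, 2.19 and 1.44 in knockout and at 1.07, 0.622, 0.918 and 0.570 in wild-type mice, where knockout 1 lay just above wild-type 1 and the groups did not overlap. Summed monocyte markers were lower in each knockout than in each wild-type mouse, narrowly so in knockout 1 (740 CPM, against 751 CPM in wild-type 3; exact permutation p = 0.0857). On average 7 of 7 tested monocyte markers were lower in knockout mice, and none was called by edgeR. The part of these cell type markers in the Apoe values was not tested.

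The neighbouring apolipoprotein genes were close to undetected beside Apoe. Apoc1, which in humans is known to inhibit lipid transfer and lipase activity, had 26, 17 and 10 counts in knockout mice 1 to 3 and 9, 22, 12 and 3 counts in wild-type mice, or 0.649 ± 0.263 CPM (SD, n = 3) in knockout and 0.433 ± 0.307 CPM (SD, n = 4) in wild-type mice. Its groups overlapped, with a log2 fold change of 0.58 (SE 0.81, 95% interval -1.24 to 2.41, edgeR adjusted p = 1.00), a precision limited by these low counts. Apoc2, the activator of lipoprotein lipase, had 10, 0 and 3 counts in knockout and 1, 0, 0 and 3 counts in wild-type mice and did not pass the filter on low counts. The annotation places 79.5% of the exon bases of Apoc2 also in Gm44805, a gene on the same strand that had 0 counts in all libraries. Reads there cannot be assigned to 1 gene, so the Apoc2 counts may leave out reads, which was not tested.

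The transporter genes differed from each other in how they followed genotype. Abcg1 measured 49.2, 138 and 104 CPM in knockout mice 1 to 3 and 44.9, 67.5, 59.2 and 44.9 CPM in wild-type mice. Knockout 2 and 3 were above all wild-type mice and knockout 1 was below wild-type 2 and 3. The log2 fold change was 0.84 (SE 0.32, 95% interval 0.12 to 1.56, edgeR adjusted p = 0.907), with 0.50 (SE 0.32) without knockout 2 and 1.14 (SE 0.22) without knockout 1. Abca1 measured 152, 308 and 254 CPM in knockout mice and 304, 190, 282 and 145 CPM in wild-type mice, so that the highest and the lowest mice of each group were nearly level. Its log2 fold change was 0.05 (SE 0.31, 95% interval -0.67 to 0.76, edgeR adjusted p = 1.00), an interval that leaves room for a difference in either direction. The sign of the Abca1 value turned with scaling by library totals and without knockout 2, knockout 3, wild-type 2 or wild-type 4.

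**Figure D2:**
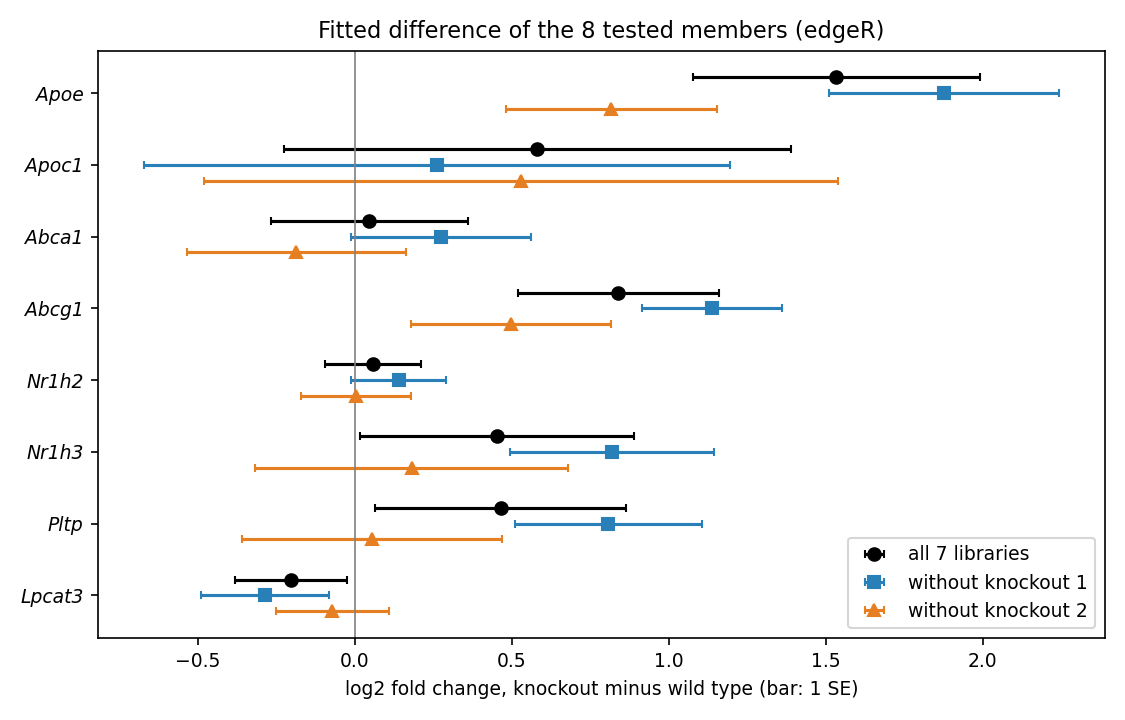
Fitted log2 fold change, knockout minus wild type, of the 8 tested genes with 1 SE (edgeR), for all 7 libraries and without knockout 1 or knockout 2. Apoe is at 1.53 with all libraries, 1.88 without knockout 1 and 0.82 without knockout 2, and Abca1 stays within 1 SE of 0 with all libraries and without either mouse.

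The receptors stood at different levels and spread. Per kilobase of exon, Nr1h2 was the higher, at 44.2 CPM per kb in knockout and 42.5 in wild-type mice on average, while Nr1h3 was at 15.7 CPM per kb in knockout and 11.4 in wild-type mice. Nr1h2 measured 128, 159 and 158 CPM in knockout and 137, 129, 155 and 149 CPM in wild-type mice. Its groups overlapped throughout, with a log2 fold change of 0.06 (SE 0.15, 95% interval -0.29 to 0.40, edgeR adjusted p = 1.00). Nr1h2 was among the steadiest genes: its standard deviation of log2 CPM within groups was 0.145, lower than in all but 5.28% of tested genes, where the median was 0.403.

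Nr1h3 varied more between mice of a genotype than between genotypes. It measured 15.2, 52.9 and 50.1 CPM in knockout and 18.1, 44.9, 25.4 and 26.6 CPM in wild-type mice, with knockout 1 the lowest of all and knockout 2 the highest. The log2 fold change was 0.45 (SE 0.44, 95% interval -0.53 to 1.44, edgeR adjusted p = 1.00), 0.82 (SE 0.32) without knockout 1 and 0.18 (SE 0.50) without knockout 2. Its standard deviation within groups was 0.766 on the log2 scale, above that of 76.7% of tested genes.

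Pltp followed the same order of mice as Nr1h3 except for 1 exchange in wild-type mice. It measured 50.4, 177 and 129 CPM in knockout and 68.2, 127, 61.8 and 87.1 CPM in wild-type mice, again with knockout 1 lowest and knockout 2 highest. The log2 fold change was 0.47 (SE 0.40, 95% interval -0.44 to 1.37, edgeR adjusted p = 1.00), and it was 0.81 (SE 0.30) without knockout 1 and 0.06 (SE 0.41) without knockout 2. Of the exon bases of Pltp, 19.3% lie also in Ctsa, a lysosomal carboxypeptidase gene on the opposite strand with 32619 to 44010 counts per library, and reads of both cannot be told apart there without strand.

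Lpcat3 was the 1 tested member with a negative fold change. It measured 51.4, 37.7 and 51.6 CPM in knockout and 51.8, 62.0, 55.3 and 46.9 CPM in wild-type mice. Knockout 2 was the lowest, and the other knockout mice lay inside the wild-type range. The log2 fold change was -0.20 (SE 0.18, 95% interval -0.61 to 0.20, edgeR adjusted p = 1.00). Lpcat3 was also steady, with a standard deviation within groups of 0.210, lower than in all but 15.6% of tested genes. Of its exon bases, 10.2% lie also in Emg1, on the opposite strand, which had 1759 to 3191 counts per library.

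Across the 7 libraries, pairs of members without Lpcat3 all had a positive Pearson r (0.31 to 0.95). Pairs with Lpcat3 all had a negative r (-0.22 to -0.71). Without knockout 2, r with Lpcat3 ran from -0.37 (Nr1h2) to 0.40 (Nr1h3). No pair passed a threshold of 0.05 after adjustment, and Apoc1 and Apoc2 were too low to be included. Among the 21 pairs of the 7 members with an average of at least 1 on the log2 CPM scale, Nr1h3 and Pltp were the closest, with a Pearson r of 0.95 (exact permutation p = 0.00317, adjusted p = 0.0667) and a Spearman rho of 0.96 (exact permutation p = 0.00278, adjusted p = 0.0583), which misses a threshold of 0.05 after adjustment. Without the 2 libraries farthest from the median of Nr1h3, knockout 2 and 3, r was 0.92, and with the genotype means removed it was 0.95. By r with all other tested genes, Pltp ranked 79 among the genes closest to Nr1h3, and Nr1h3 ranked 42 among those closest to Pltp. Abcg1 had r of 0.85 with Nr1h3 (exact permutation p = 0.0107, adjusted p = 0.0958; rho 0.75, exact permutation p = 0.0663, adjusted p = 0.348), and r was 0.73 without knockout 2 and 3. Its r was also 0.85 with Apoe (exact permutation p = 0.0149, adjusted p = 0.0958) and 0.83 with Pltp (exact permutation p = 0.0183, adjusted p = 0.0958). Without knockout 2, these values were 0.63 and 0.70. Abca1 with Nr1h3 gave r of 0.31 (exact permutation p = 0.475, adjusted p = 0.533; rho 0.32, exact permutation p = 0.498, adjusted p = 0.615), and -0.39 without wild-type 4 and knockout 1.

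**Figure D3:**
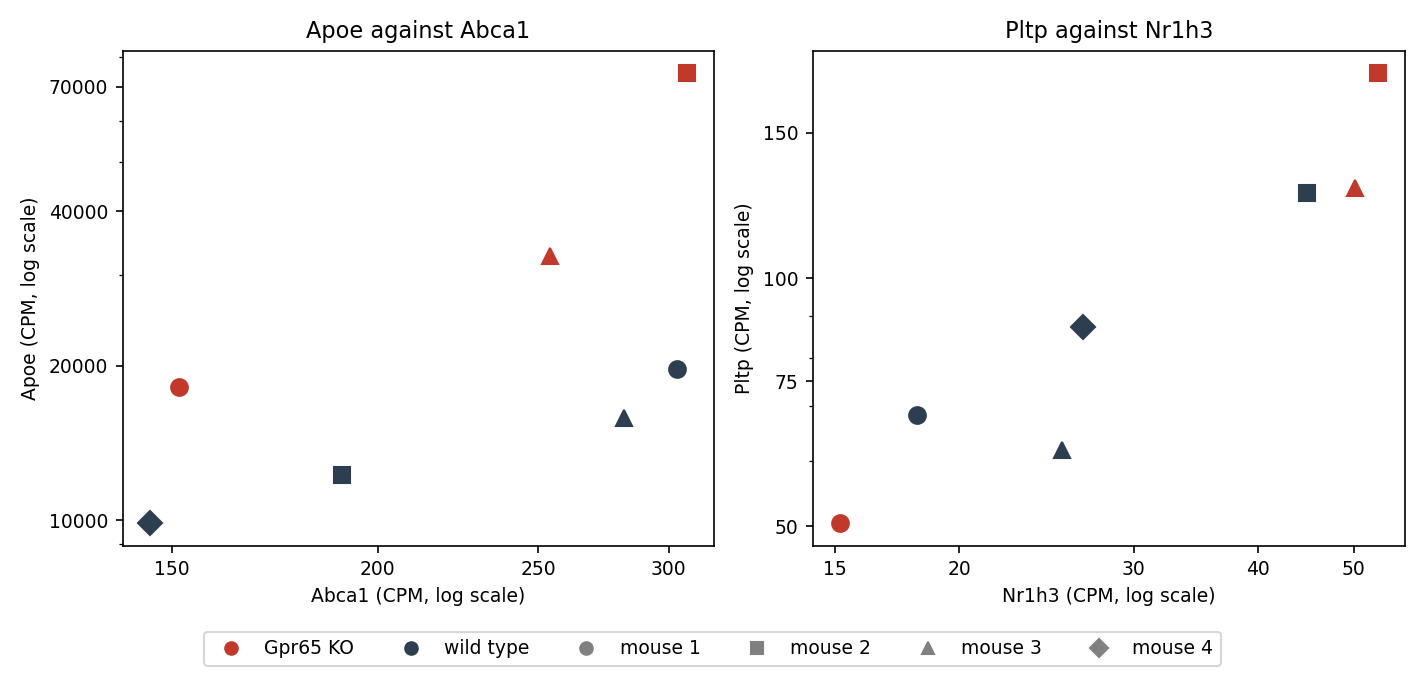
Apoe against Abca1 (left) and Pltp against Nr1h3 (right) in the 7 libraries, in TMM-scaled CPM on log axes, with colour for genotype and shape for mouse number. At like Abca1 levels the knockout mice lie above the wild-type mice in Apoe (18178 CPM in knockout 1 against 9872 CPM in wild-type 4), while in Pltp and Nr1h3 both genotypes follow the same line.

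The ratio of Apoe to Abca1 separated the genotypes, a comparison chosen after the values were seen. Per kilobase of exon, Apoe stood at 582, 1170 and 624 times the Abca1 level in knockout mice 1 to 3, and at 314, 313, 272 and 329 times in wild-type mice 1 to 4. Each knockout mouse was above each wild-type mouse, knockout 1 included, and the ratio does not depend on how libraries are scaled. The mean difference of the log2 ratio was 1.30 (two-sided exact permutation p = 0.0286, the smallest possible, and 0.143 adjusted over 5 ratios between members). That adjustment leaves out the ratios of Apoe to marker sums given above and the member pairs for which no ratio was taken. It was 0.98 without knockout 2 and 1.48 without knockout 1. Within genotypes Apoe and Abca1 varied together, with r of 0.89 after removal of the group means over the 7 libraries, while the pooled r was 0.64 (exact permutation p = 0.111, adjusted p = 0.387; rho 0.75, exact permutation p = 0.0663, adjusted p = 0.348) and 0.30 without knockout 2 and wild-type 4.

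The other ratios between members overlapped between the groups. Abcg1 stood at 0.461, 0.634 and 0.581 times the Abca1 level per kilobase in knockout mice and at 0.210, 0.504, 0.298 and 0.438 times in wild-type mice (difference of the log2 ratio 0.69, exact permutation p = 0.143, adjusted p = 0.357). Nr1h3 stood at 0.158, 0.444 and 0.423 times the Nr1h2 level in knockout mice and at 0.176, 0.465, 0.218 and 0.239 times in wild-type mice (exact permutation p = 0.629, adjusted p = 0.786). Pltp stood at 3.26, 3.29 and 2.52 times the Nr1h3 level in knockout mice and at 3.69, 2.78, 2.39 and 3.21 times in wild-type mice (exact permutation p = 0.943, adjusted p = 0.943), a narrow range in both groups. Pltp over Lpcat3 had an exact permutation p of 0.457 (adjusted p = 0.762).

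Outside the 9 genes, likeness to Apoe was taken by Pearson r of log2 CPM over the 7 libraries. Genes under an average log2 CPM of 1, unnamed gene models, pseudogenes and some other gene types were left out. Y-linked genes, Xist and immune receptor segments were left out too. Of the genes kept, the 5 most like Apoe were Limd2, Ganc, Ifi203, Tmem176b and Adap2 (r 0.98 to 0.99). Without knockout 2 the r values lay between 0.94 and 0.98. Before these exclusions, 170 of the 16233 other tested genes had r of at least 0.9 with Apoe over the 7 libraries. The 5 genes were picked for likeness to Apoe in the same 7 libraries, so a like difference between genotypes is built into the choice. Tmem176b, an intracellular membrane protein, measured 238, 980 and 469 CPM in knockout and 212, 148, 190 and 77.0 CPM in wild-type mice, with each knockout mouse above each wild-type mouse. It was not called by edgeR (log2 fold change 1.84, SE 0.48, adjusted p = 0.730) and was called by DESeq2 (adjusted p = 0.0155). It was at 1.17 without knockout 2 (SE 0.41, edgeR adjusted p = 1.00). Limd2, a LIM-domain protein, measured 192, 451 and 270 CPM in knockout and 181, 164, 189 and 140 CPM in wild-type mice (log2 fold change 0.85, SE 0.27, edgeR adjusted p = 0.776), and without knockout 2 it was at 0.45.

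Genes around the efflux route were read from 9 lists of 91 genes, of which 74 were tested and 0 were called by edgeR. Before adjustment, 8 of the 74 had p under 0.05, as did 5.37% of all tested genes, and DESeq2 called 1, Lsr (0.607% of all genes it tested). In 8 of the 74 the groups did not overlap, against 6.12% of all tested genes. Of these 8, 5 were higher (Mylip, Mertk, Gps2, Lpcat1 and Insig1, against 2.8% of all tested genes higher without overlap) and 3 lower (Cyp7b1, Vldlr and Lsr) in knockout mice.

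Other LXR targets showed no common direction, with 7 of 15 tested genes positive and 8 negative and a median log2 fold change of -0.04. Mylip, which marks lipoprotein receptors for degradation, measured 43.7, 96.4 and 57.6 CPM in knockout and 36.0, 28.1, 35.3 and 16.3 CPM in wild-type mice. Each knockout mouse was above each wild-type mouse (log2 fold change 1.19, SE 0.33, edgeR adjusted p = 0.736). Lpl, the lipoprotein lipase, had 0.63 (SE 0.34), the efferocytosis receptor Mertk 0.32 (SE 0.15) and Srebf1, the factor that drives fatty acid synthesis, -0.26 (SE 0.16). Tgm2 and Smpdl3a, the highest of the list per kilobase, had 0.03 (SE 0.45) and -0.27 (SE 0.45).

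Receptors of Apoe had 2 of 6 tested genes positive and 4 negative, with a median of -0.50. Lrp1, the large endocytic receptor, measured 711, 466 and 633 CPM in knockout and 1093, 554, 1150 and 797 CPM in wild-type mice (log2 fold change -0.57, SE 0.28, edgeR adjusted p = 0.975). Lsr, the lipolysis-stimulated lipoprotein receptor, measured 4.27, 6.18 and 4.85 CPM in knockout and 11.1, 12.0, 12.0 and 10.6 CPM in wild-type mice. It was lower in each knockout mouse (log2 fold change -1.17, SE 0.24), with an adjusted p of 0.579 by edgeR and 0.00193 by DESeq2. Lsr is also a gene of epithelial cells, and the MC38 and epithelial markers given above were on average lower in knockout mice. In that sum knockout 1, at 168 CPM, was above wild-type 1 (126 CPM) and wild-type 3 (137 CPM). The part of these markers in the Lsr values was not tested. Vldlr was low throughout, at 0.818 ± 0.485 CPM (SD, n = 3) in knockout and 2.47 ± 0.975 CPM (SD, n = 4) in wild-type mice, with a log2 fold change of -1.59 (SE 0.61, edgeR adjusted p = 0.909). Trem2, a receptor that can bind Apoe, had 0 counts in all 7 libraries. Whether the counting left out reads of Trem2 was not tested, so the 0 is not a measure that the gene was silent.

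Genes that supply sterol to the route had 7 of 13 positive and 6 negative, with a median of 0.01. Lipa, the lysosomal lipase that frees cholesterol from its esters, measured 130, 239 and 173 CPM in knockout and 146, 111, 127 and 122 CPM in wild-type mice, with a log2 fold change of 0.52 (SE 0.22, edgeR adjusted p = 0.917). Plin2, the coat protein of lipid droplets, measured 490, 345 and 259 CPM in knockout and 582, 718, 489 and 630 CPM in wild-type mice, where knockout 1 was level with wild-type 3 (log2 fold change -0.73, SE 0.25, edgeR adjusted p = 0.812). The lysosomal cholesterol carrier Npc2 had 0.17 (SE 0.30).

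Enzymes that make or clear oxysterols had 4 of 5 positive, with a median of 0.48. Ch25h, cholesterol 25-hydroxylase, had 117, 52.8 and 31.2 CPM in knockout and 51.5, 19.7, 40.3 and 38.6 CPM in wild-type mice, an order of mice in which knockout 1 was the highest (log2 fold change 0.83, SE 0.44, edgeR adjusted p = 0.991). Without knockout 1 it was 0.15 (SE 0.35, edgeR adjusted p = 0.938). Cyp27a1, sterol 27-hydroxylase, had 41.3, 164 and 124 CPM in knockout and 71.0, 105, 83.6 and 55.8 CPM in wild-type mice, with knockout 1 the lowest (log2 fold change 0.48, SE 0.41, edgeR adjusted p = 1.00). Cyp27a1 is the middle gene of the list, and without knockout 2 it was at 0.07. Cyp7b1, which clears oxysterols, was under 1 CPM in every library and had a log2 fold change of -3.37 (SE 1.28, edgeR adjusted p = 0.907). The retinoid X receptors and LXR coregulators had 7 of 11 positive with a median of 0.07, among them Rxrb at 0.23 (SE 0.18) and the corepressor subunit Gps2 at 0.30 (SE 0.15).

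Among the remaining lists, SREBP2 targets and other lysophospholipid acyltransferases were close to even. SREBP2 targets, which respond to low sterol, had 5 of 12 positive with a median of -0.03, with Insig1 at 0.31 (SE 0.14) and the mevalonate enzyme Mvd at -0.23 (SE 0.29). Other lysophospholipid acyltransferases had 3 of 6 positive with a median of 0.04, and Lpcat2 and Lpcat1, the highest of them per kilobase, had 0.77 (SE 0.34) and 0.45 (SE 0.16). Genes flanking the apolipoprotein cluster had 4 of 4 positive with a median of 0.07, with Clptm1 at 0.06 (SE 0.17) and Tomm40 at 0.07 (SE 0.20), far from the value of Apoe between them. Of 10 other exchangeable apolipoproteins 3 were tested, with 1 positive and 2 negative and a median of -0.78. Apoa2 and Apod had 0.52 (SE 0.65) and -0.78 (SE 0.71) at levels of 0.329 to 2.23 CPM. The third tested, Clu, had -2.20 (SE 0.94, edgeR adjusted p = 0.923) at 0.133 to 2.38 CPM.

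**Figure D4:**
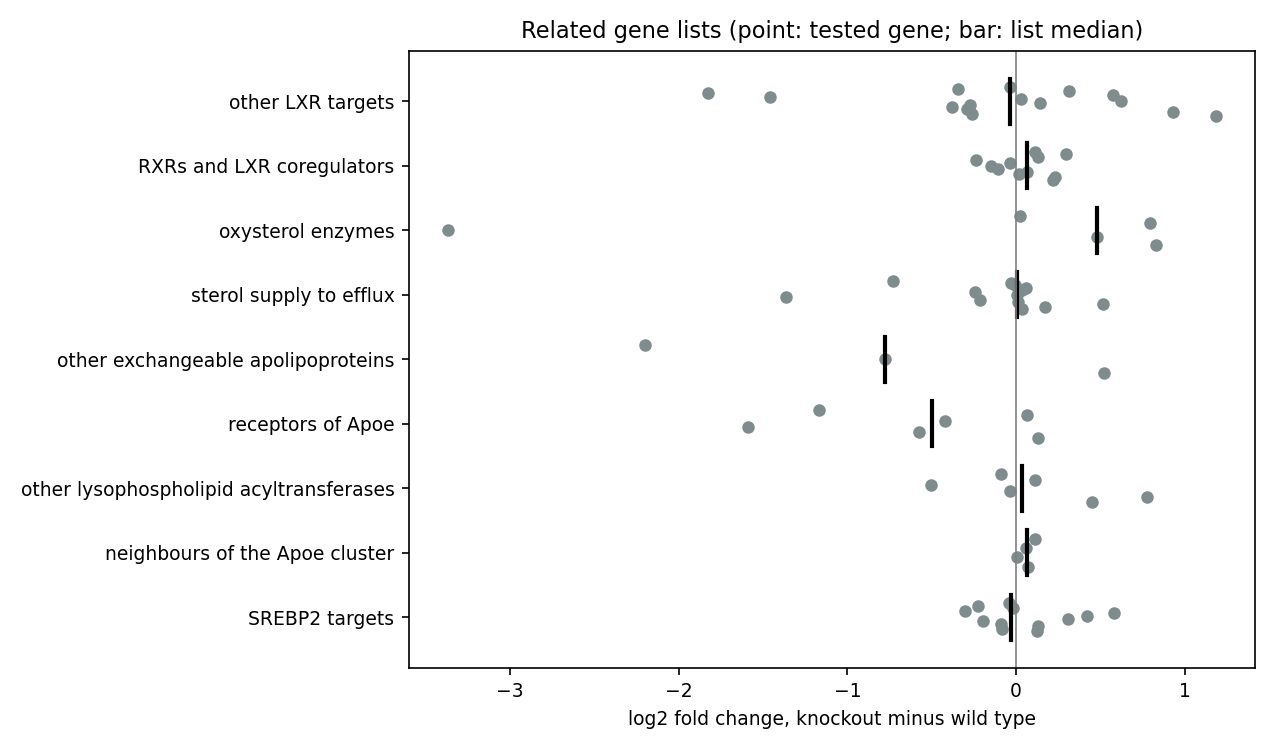
Log2 fold change, knockout minus wild type, of the tested genes of 9 lists around the efflux route, where each point is a gene and each bar the median of its list. Medians lie between -0.78 for 3 other exchangeable apolipoproteins and 0.48 for 5 oxysterol enzymes, and no gene was called by edgeR.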

How the data were processed

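The authors deposited 1 table of read counts per gene for the 7 libraries, as whole numbers without normalization. A SMART-seq kit was used on polyA RNA, per the labels. The submitters' processing notes name BWA 0.7.12, DESeq2 1.24.0, FastQC 0.11.5 and cutadapt 1.15 with GRCm38. The counting program and the use of strand are not given in the sources used here. The members and lists were chosen with earlier results of these data known. Genes were named by identifier from GENCODE M21 (53274 of 53379 matched).

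Counts were fitted with edgeR 4.0.16 (R 4.3.3), by its robust quasi-likelihood F test with TMM factors, filterByExpr (16234 genes left), genotype as the only term and Benjamini-Hochberg adjustment over all tested genes at 0.05. Levels are TMM-scaled CPM, per kilobase of merged exons where genes are compared, and log2 CPM was taken with a prior of 2 counts. Single values were compared by exact permutation over the 35 splits. Alternatives were other scalings and filters, DESeq2 1.42.0, limma 3.58.1 voom, a non-robust fit, a block for mouse number, an adjusted p of 0.1 and each library left out. Named genes were the members, Gpr65, the called or otherwise the 2 highest genes per kilobase in each list, and the 5 most like Apoe; Mylip, Lsr, Lipa, Lpl, Srebf1, Vldlr, Mertk, Cyp7b1, Clu and Trem2 were added after their values were seen. A gene that the rule names is not reported here.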

Additional observations from a re-analysis of the deposited data

Results flagged for a closer look

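Among 57 sets of 4 wild-type values examined, 2 held a mouse far from the others, where the distance to the next mouse, as a share of the range of all 4, passed Dixon's 95% limit, and chance flags about 1 in 20. Wild-type 2 was the highest for the acyltransferase Lpcat1, where this share was 0.936, and for the summed neutrophil markers, where it was 0.86. Groups of 3 knockout mice are too few for this measure.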

How the results depend on the processing

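No member was called by edgeR under any alternative, and DESeq2 called 1 (Apoe, adjusted p = 0.0464) and gave Apoc2 no adjusted p. Over all genes the count of calls was 6, and it was 11 without a filter on low counts, 120 by DESeq2 (44 higher, 76 lower), 1 with the mouse number as a replicate block, and 3 (without knockout 2) to 14 (without knockout 1) when a library was left out. The labels do not say whether mouse numbers pair the libraries. Deviations from the group means of same-numbered mice had correlations of 0.0656, 0.0509 and 0.0882. Different-numbered mice were not compared, so these values cannot settle whether the libraries were paired. With the block Apoe was at 1.17. Scaling by library totals alone moved the median of all genes to -0.11, and with it Abca1 was at -0.12, Nr1h2 at -0.0683, Tgm2 at -0.0652 and Clptm1 at -0.0739. Abca1 was at -0.15 with the block. With limma voom, Smpdl3a was at 0.27 and Apod at 0.0061. When 1 library was left out, the log2 fold change of Abca1 ranged from -0.19 to 0.28, Tgm2 from -0.54 to 0.26, Smpdl3a from -0.71 to 0.17, Npc2 from -0.10 to 0.42, Clptm1 from -0.077 to 0.12, Tomm40 from -0.15 to 0.18 and Mvd from -0.53 to 0.0418. Of 605 values for 38 named genes, 581 kept their direction and side of the threshold, 3 were called by DESeq2 where edgeR did not call them (Apoe, Tmem176b and Lsr), and 21 in 9 genes turned sign; the cause was not tested. The median of the 8 members, examined over these settings after seeing the data, ranged from 0.12 (without knockout 2) to 0.73 (without wild-type 2). The ratio of Apoe to Abca1 stayed positive without any 1 library (0.98 to 1.48), an alternative chosen after seeing the data, but with 6 libraries the smallest permutation p possible is 0.0667 (a knockout left out) or 0.1 (a wild type left out).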
